A study of Mus musculus with 4 samples.

Results

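The genes described here encode the machinery that folds tubulin, namely the chaperonin TRiC, prefoldin and the tubulin cofactors, together with heat shock proteins and chaperones and stress factors of the endoplasmic reticulum (ER). They were chosen by gene symbol as 8 TRiC subunits, 6 prefoldin subunits, 6 tubulin cofactors and relatives, 21 heat shock genes and 9 ER genes. All 50 were listed in the deposited table of RNA from purified ependymal multicilia and took 67 of its 12515 transcript rows and 50 of its 10213 gene symbols. A gene had more than 1 row in 16 of the 50, and both its rows and their sum are given in FPKM, fragments scaled to transcript length and library size. The table lists no row that is at 0 in a Ctrl-i library, so a sum covers the listed transcripts of a gene only.

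The study asked which mRNAs in motile cilia depend on Fmrp, the RNA-binding protein encoded by Fmr1. Cultured mouse ependymal cells (mEPCs) were prepared from the telencephalon of C57BL/6 pups of either sex on the day of birth or the day after, and were transfected every 3 days with 40 pmol of either the control siRNA Ctrl-i or the Fmr1 siRNA Fmr-i1. Multicilia were collected after 10 days of serum starvation in Exp.1 and Exp.2, which gave 2 Ctrl-i and 2 Fmr-i1 libraries of polyadenylated RNA. By the methods of the study the preparation holds multicilia with the apical cortex that carries them, so RNA of the ciliary shaft and of the cortex beneath it cannot be told apart, nor can fewer ependymal cells and less RNA per cell.

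Fmr1 itself had 1 row. Ctrl-i had 0.42 FPKM in Exp.1 and 8.13 FPKM in Exp.2, and 0 was listed for each Fmr-i1 library. The listed value was thus lower in Fmr-i1 in each experiment. Zeros of Fmr-i1 always came as a pair, in 162 rows, and 0 rows had a zero for just 1 library. Ctrl-i had no zeros. Whether a listed zero was measured or came from the filtering of the values therefore cannot be told. The 8 ependymal marker genes were all listed, with sums between 702.82 FPKM and 965.88 FPKM over the libraries, and of 5 microglial markers 0 were listed. The 6 astrocyte markers summed to 3390.22 and 2723.94 FPKM in Ctrl-i and to 2352.13 and 2329.11 FPKM in Fmr-i1. Of 5 oligodendrocyte markers 3 were listed, with sums of 39.47 and 37.37 FPKM in Ctrl-i and 47.52 and 61.21 FPKM in Fmr-i1. Of 5 neuron markers 2 were listed, at 29.22 and 12.26 FPKM against 15.03 and 19.55 FPKM. Of 5 mesenchymal markers 2 were listed, at 1.86 and 0.55 FPKM against 0.39 and 5.69 FPKM. Ribosomal RNA encoded in mitochondria (mt-Rnr1 plus mt-Rnr2) made up 27.4% and 37.6% of all FPKM in Ctrl-i, against 28.4% and 23% in Fmr-i1, and the median log2 fold change of all genes tested was 0.16 rather than 0. Median scaling of the libraries moved that median to -0.01. Differences below are given on the deposited scale, where they are to be read against 0.16, and the part that the mitochondrial RNAs or other cells have in them was not tested.

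Tubulin cannot fold on its own. Prefoldin catches the nascent chain and hands it to TRiC, a double ring of 8 related subunits that closes over the chain and folds it at the cost of ATP. The tubulin cofactors then take the monomers and join alpha- and beta-tubulin into the dimer that builds the axoneme. Hsp70, Hsp90 and the small heat shock proteins serve a wide range of cytosolic clients, and many of their genes are switched on by the factor Hsf1 through the heat shock element in their promoters. Proteins that enter the ER are folded by another set, whose genes are raised in the unfolded protein response.

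No gene of the 50 was called by the test. Limma, fitted to log2(FPKM + 1) with the experiment as a block, called 0 of 9804 gene sums (0%) and 0 of 11898 rows (0%) at an adjusted p below 0.05, so the members had no call to be set against that background. At an unadjusted p below 0.05 there were 519 gene sums and 598 rows, among them the sums of 3 members, Cct7, Pfdn4 and Hspb1. Without the replicate block 3 rows were called, 1 of Bag1 and 2 of 9530068E07Rik, none of them in this set. Without the Exp.2 Ctrl-i library the sum of Rpl19, also outside this set, had a log2 fold change of 7.84. That value rested on 0.01 FPKM in the Exp.1 Ctrl-i library. Rpl19 had 157.34 FPKM in the Exp.2 Ctrl-i library and 248.06 and 212.85 FPKM in Fmr-i1. Only 1 residual degree of freedom is left in the fit, apart from the spread borrowed from other genes, and the smallest p that an exact permutation test of 2 libraries against 2 can give is 0.333.

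Over the 50 genes the median log2 fold change of the sums was 0.13, with 34 positive and 16 negative values and 18 above the all-gene median of 0.16. Both Fmr-i1 libraries lay above both Ctrl-i libraries for 11 of the 50 genes, where 27.2% of all genes did, and below them for 6 genes, where 9.99% of all genes did. The 11 were Cct5, Cct6a, Cct7, Pfdn1, Pfdn2, Pfdn4, Vbp1, Hspa4, Hspa9, Hspb1 and Dnaja1, and the 6 were Tbcd, Hspa1a, Hsp90ab1, Hspe1, Hspb8 and Xbp1. With median scaling the first count was 2, Cct7 and Hspb1, where 17.1% of all genes lay above, and the second was 9, where 18.3% of all genes lay below.

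**Figure D1:**
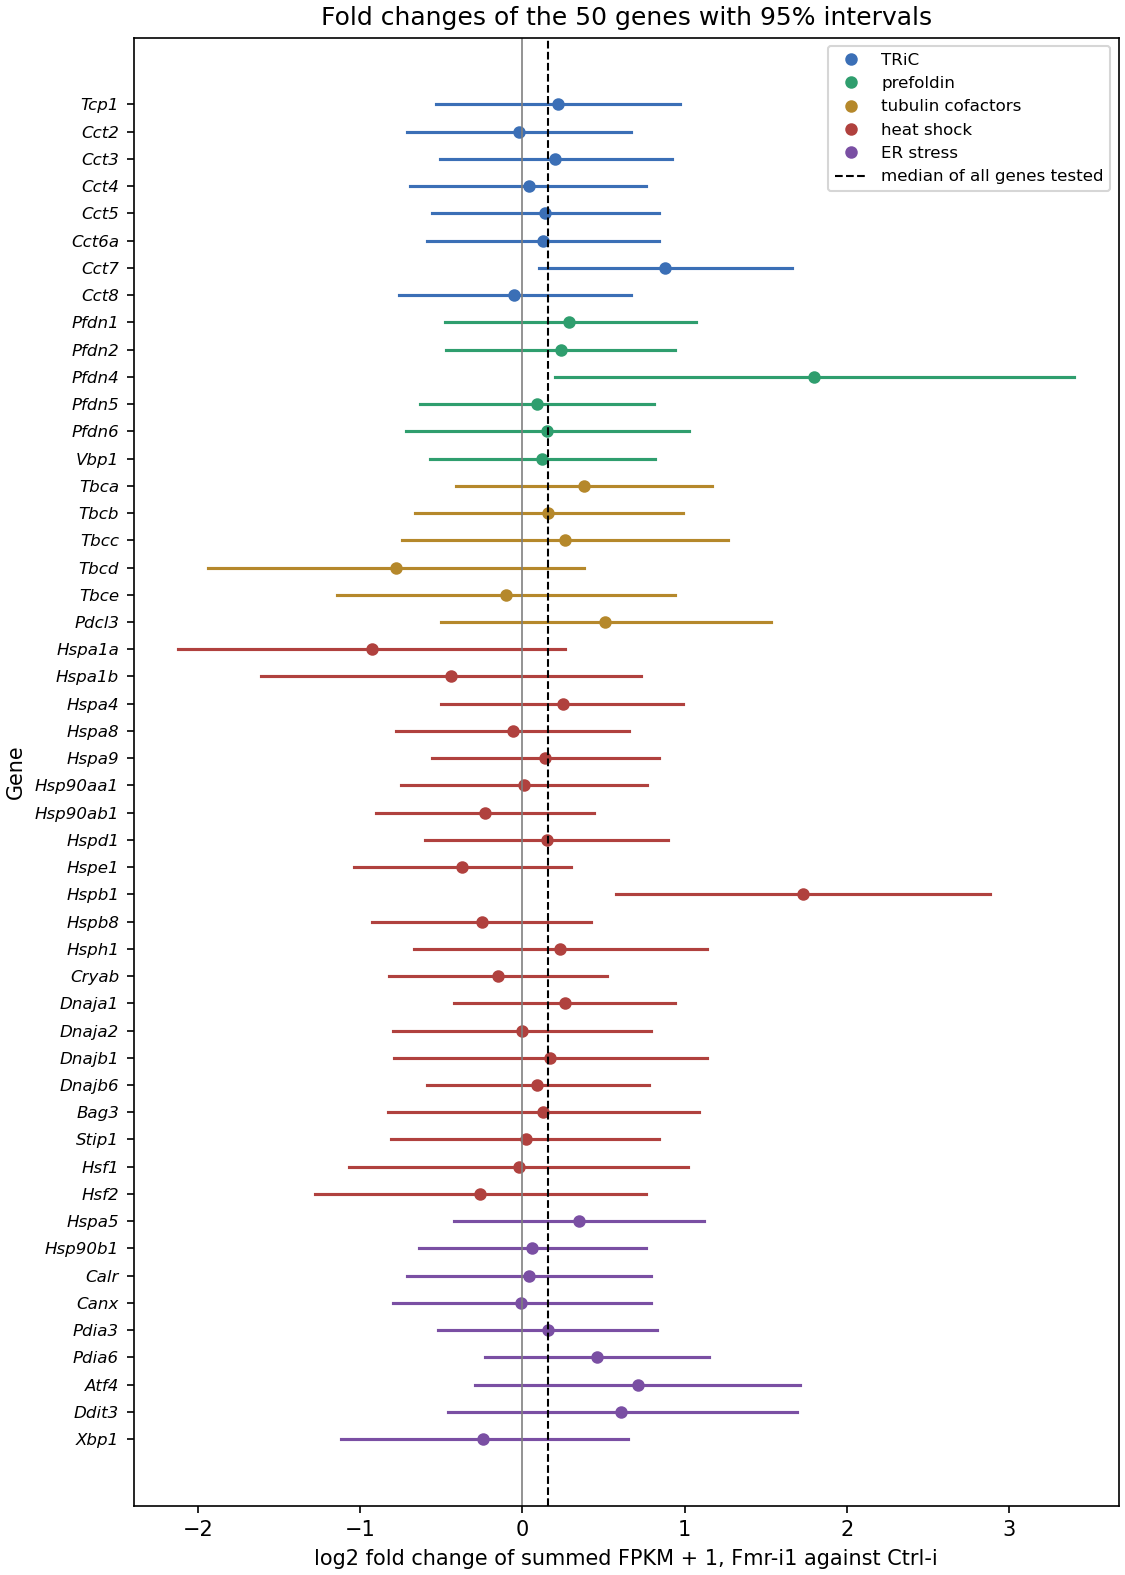
Log2 fold change of the summed FPKM + 1 in Fmr-i1 against Ctrl-i (horizontal axis) for each of the 50 genes (vertical axis), from limma with 2 libraries a group. Points are estimates, lines are 95% intervals, colours are the groups and the dashed line is the all-gene median of 0.16. The intervals of Cct7, Pfdn4 and Hspb1 do not reach 0 and those of the other genes do, before adjustment.

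As a group the TRiC subunits differed little between Ctrl-i and Fmr-i1. Their sums added up to 558.39 and 559.41 FPKM in the Ctrl-i libraries of Exp.1 and Exp.2 and to 624.24 and 610.34 FPKM in the Fmr-i1 libraries. The groups did not overlap, with means of 558.9 ± 0.721 (SD, n = 2) and 617.3 ± 9.83 (SD, n = 2), and the ratio of 1.104 had p = 0.333 in a two-sided exact permutation test. With median scaling this ratio was 0.964. Without Cct7 the remaining 7 subunits gave a ratio of 1.058, so a large share of the group's difference lay in that 1 gene. The median log2 fold change of the 8 subunits was 0.13, with 6 positive and 2 negative values, and 3 of the positive ones (Cct4, Cct5 and Cct6a) turned negative with median scaling.

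Cct2, the beta subunit, was the most abundant in every library. It had 116.19 and 124.13 FPKM in Ctrl-i and 129.19 and 108.66 FPKM in Fmr-i1, groups that overlapped (log2 fold change -0.02 ± 0.30, SE; adjusted p = 0.996). The least abundant subunit was Cct7 in both Ctrl-i libraries, Tcp1 in the Exp.1 Fmr-i1 library and Cct4 in that of Exp.2. The highest subunit exceeded the lowest by 4.31 and 3.07 times in Ctrl-i and by 2.24 and 1.83 times in Fmr-i1, and the coefficient of variation over the 8 subunits was 38.1% and 37.9% in Ctrl-i, against 30.6% and 22.7% in Fmr-i1. By their sums the subunits were thus closer to one another in both Fmr-i1 libraries. This describes the 4 libraries and was noticed after their values were seen. The Cct7 sums include a second row besides the coding one. The coding row alone had 40.39 FPKM in the Exp.2 Ctrl-i library and 32.97 FPKM in the Exp.2 Fmr-i1 library. The narrower span from highest to lowest in Exp.2 thus depends on counting the second row.

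Of the 8 subunits Cct7, the eta subunit, stood farthest from its Ctrl-i level. It had 26.97 and 40.41 FPKM in Ctrl-i and 63.96 and 59.36 FPKM in Fmr-i1. Both Fmr-i1 libraries were above both Ctrl-i libraries, by 2.372 times in Exp.1 and 1.469 times in Exp.2, and this order held with median scaling. The log2 fold change was 0.88 ± 0.34 (SE), with an unadjusted p of 0.0323 and an adjusted p of 0.91 from limma. Leaving out each library in turn gave values from 0.60 to 1.16, the higher without the Exp.2 Ctrl-i library.

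The other subunits were close to level. Tcp1, the alpha subunit, had 60.68 and 50.37 FPKM in Ctrl-i and 57.63 and 71.82 FPKM in Fmr-i1 (log2 fold change 0.22 ± 0.33, adjusted p = 0.953). Cct3, the gamma subunit, had 89.22 and 67.23 FPKM against 86.85 and 92.07 FPKM (0.20 ± 0.31, adjusted p = 0.953). Both were lowest in the Exp.2 Ctrl-i library, and their groups overlapped.

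Cct5, the epsilon subunit, had 78.52 and 68.39 FPKM in Ctrl-i and 80.51 and 81.35 FPKM in Fmr-i1 (0.14 ± 0.30, adjusted p = 0.969). Cct6a, the zeta subunit, was measured through 1 row that the annotation does not class as coding and had 57.58 and 54.31 FPKM against 59.42 and 62.8 FPKM (0.13 ± 0.31, adjusted p = 0.974). In both genes the Fmr-i1 libraries lay above the Ctrl-i libraries by small margins, and both fold changes turned negative with median scaling. Cct8, the theta subunit, had 74.99 and 90.62 FPKM against 85.05 and 74.99 FPKM, with the same value in the lowest library of each group (-0.05 ± 0.31, adjusted p = 0.993).

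**Figure D2:**
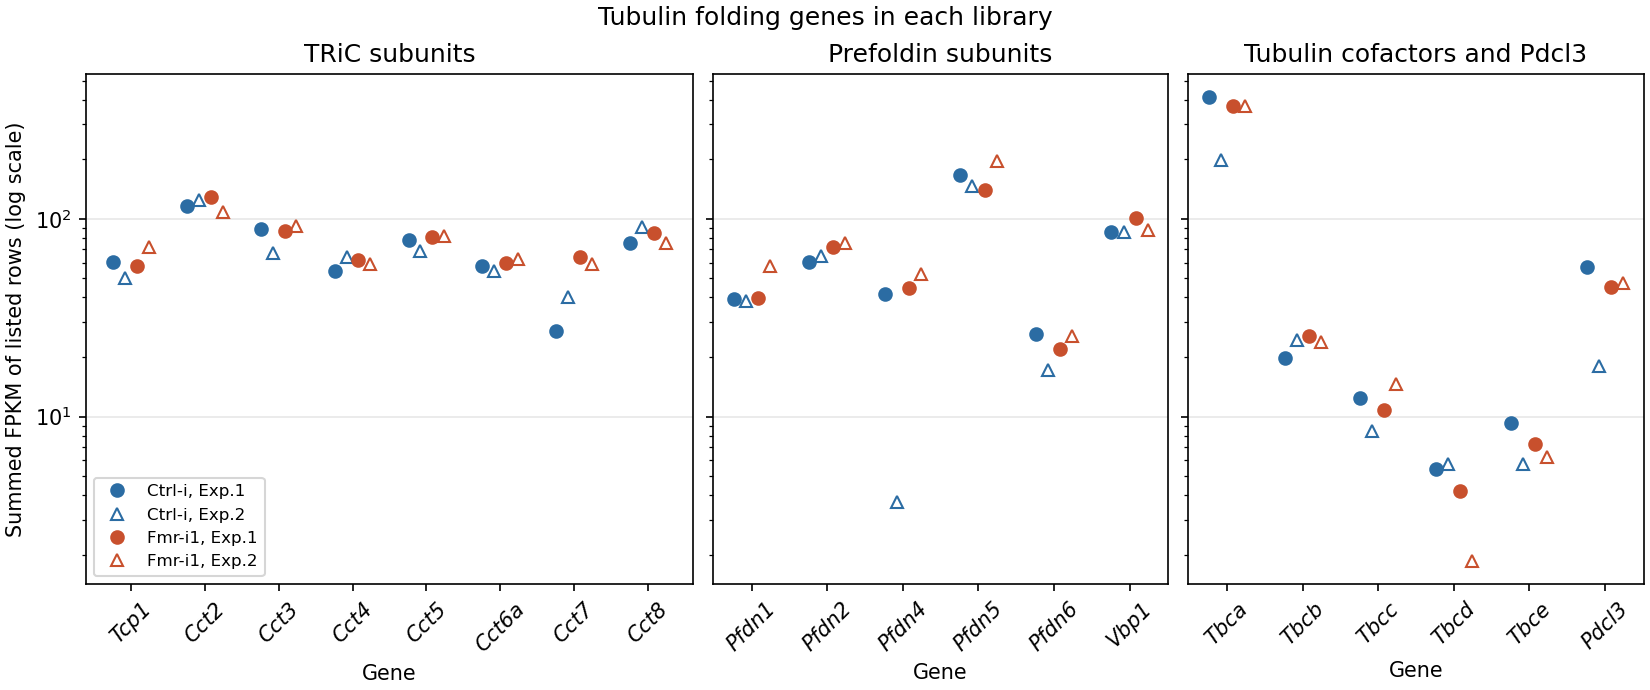
Summed FPKM of the listed rows (vertical axis, log scale) for the TRiC subunits, prefoldin subunits and tubulin cofactors (horizontal axis), 1 symbol per library. Blue is Ctrl-i and red is Fmr-i1, circles are Exp.1 and triangles are Exp.2. Pfdn4 is at 3.7 FPKM in the Exp.2 Ctrl-i library, where Tbca and Pdcl3 are lowest too.

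Cct4, the delta subunit, was the clearest case of rows that disagreed with their sum. The sum was 54.24 and 63.95 FPKM in Ctrl-i and 61.63 and 59.29 FPKM in Fmr-i1, with a log2 fold change of 0.04 ± 0.31 and an adjusted p of 0.996. Its sign turned with median scaling (-0.16), with quantile normalization (-0.08), without the mitochondrially encoded RNAs (-0.02) and without the Exp.1 Ctrl-i library (-0.08). Below this level sum the 2 rows went opposite ways.

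The row of transcript ENSMUST00000173867, with 14 exons on chromosome 11 from 22990519 to 23003780 of GRCm38, had 54.2 and 63.94 FPKM in Ctrl-i and 48.8 and 36.01 FPKM in Fmr-i1. Both Fmr-i1 libraries were below both Ctrl-i libraries (log2 fold change -0.48 ± 0.34, adjusted p = 0.95). The row of ENSMUST00000020562, with 13 exons, had 0.04 and 0.01 FPKM in Ctrl-i and 12.83 and 23.28 FPKM in Fmr-i1. It took 0.07% and 0.02% of the Cct4 sum in Ctrl-i, against 20.82% and 39.26% in Fmr-i1, so it was near the bottom of the scale in one group and a sizeable part of the gene in the other. Its log2 fold change of 4.16 ± 0.52 (unadjusted p = 0.000405) had an adjusted p of 0.381 over all rows, and 0.179 to 0.932 under the alternatives tried. The size depends on the pseudocount, with 7.13 at 0.1 FPKM and 2.16 at 5 FPKM.

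The second row lacks exon 3 of the first, 90 coding bases or 30 codons on chromosome 11 from 22994298 to 22994387 (+ strand), and joins exon 2 to the next exon in frame. The rows also differ in where their first and last exons start and end. The stretch is shown because it is what separates the coding sequences of the 2 rows. Letters are from the GENCODE M21 transcripts, read 5′ to 3′; capitals mark exon 3 in the first line and the bases joined across the gap in the second.
Cct4 with exon 3: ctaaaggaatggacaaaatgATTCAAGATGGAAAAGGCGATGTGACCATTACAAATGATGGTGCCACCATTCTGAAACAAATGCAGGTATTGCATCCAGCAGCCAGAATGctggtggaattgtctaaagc
Cct4 without exon 3: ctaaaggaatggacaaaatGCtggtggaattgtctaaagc
The table lists 2 of the 9 Cct4 transcripts in the annotation. The values belong to transcripts that share nearly all their exons, and no reads over the junction are given, so how well the 2 rows were told apart cannot be judged from the table.

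Cct7 also differed in its makeup. The coding row, ENSMUST00000032078 (12 exons, chromosome 6 from 85451514 to 85468475), had 24.93 and 40.39 FPKM in Ctrl-i and 49.45 and 32.97 FPKM in Fmr-i1, so its groups overlapped (log2 fold change 0.34 ± 0.42, adjusted p = 0.956). The row ENSMUST00000204489, which the annotation classes as a target of nonsense-mediated decay, had 2.04 and 0.02 FPKM in Ctrl-i and 14.51 and 26.39 FPKM in Fmr-i1. Both Fmr-i1 libraries were above both Ctrl-i libraries, and the row took 7.56% and 0.05% of the sum in Ctrl-i, against 22.69% and 44.46% in Fmr-i1 (log2 fold change 3.55 ± 0.71, adjusted p = 0.785). In Exp.2 the whole difference of the Cct7 sum lay in this row, since the coding row was lower in Fmr-i1 than in Ctrl-i. The table lists 2 of the 7 annotated Cct7 transcripts. They share most of their exons and no reads over the junctions are given, so how well they were told apart cannot be judged.

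This second row leaves out exon 3, 107 bases from 85459942 to 85460048, and the first 42 bases of exon 4, from 85461045 to 85461086 on chromosome 6 (+ strand). The 149 bases are not a whole number of codons, and the annotated coding sequence of the row is 249 bases long against 1632 in the coding row. Capitals mark the bases left out in the first line and the bases joined in the second.
Cct7 coding row: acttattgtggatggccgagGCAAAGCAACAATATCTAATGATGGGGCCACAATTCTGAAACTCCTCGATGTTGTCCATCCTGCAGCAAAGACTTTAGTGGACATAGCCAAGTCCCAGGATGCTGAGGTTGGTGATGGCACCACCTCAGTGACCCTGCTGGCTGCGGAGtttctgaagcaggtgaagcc
Cct7 shortened row: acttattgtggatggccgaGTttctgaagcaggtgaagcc

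In 3 of the 8 TRiC genes a row had the opposite sign to the sum, namely Cct2, Cct4 and Cct5. In Cct2 the main row, ENSMUST00000047672, was level at 107.71 and 96.59 FPKM in Ctrl-i and 108.34 and 103.81 FPKM in Fmr-i1, and the slightly negative value of the sum came with a short row of 7 exons that had 8.48 and 27.54 FPKM against 20.85 and 4.85 FPKM. In Cct5 the opposed row was the short ENSMUST00000161266, with 3.71 and 5.15 FPKM against 5.83 and 1.81 FPKM. The groups overlapped for these rows of Cct2 and Cct5, unlike for the Cct4 rows. Over all members 9 of 32 tested rows of multi-row genes were opposed to their sum (28.1%), and over all genes 1053 of 3923 were (26.8%), so the share in this set was close to that of the table.

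**Figure D3:**
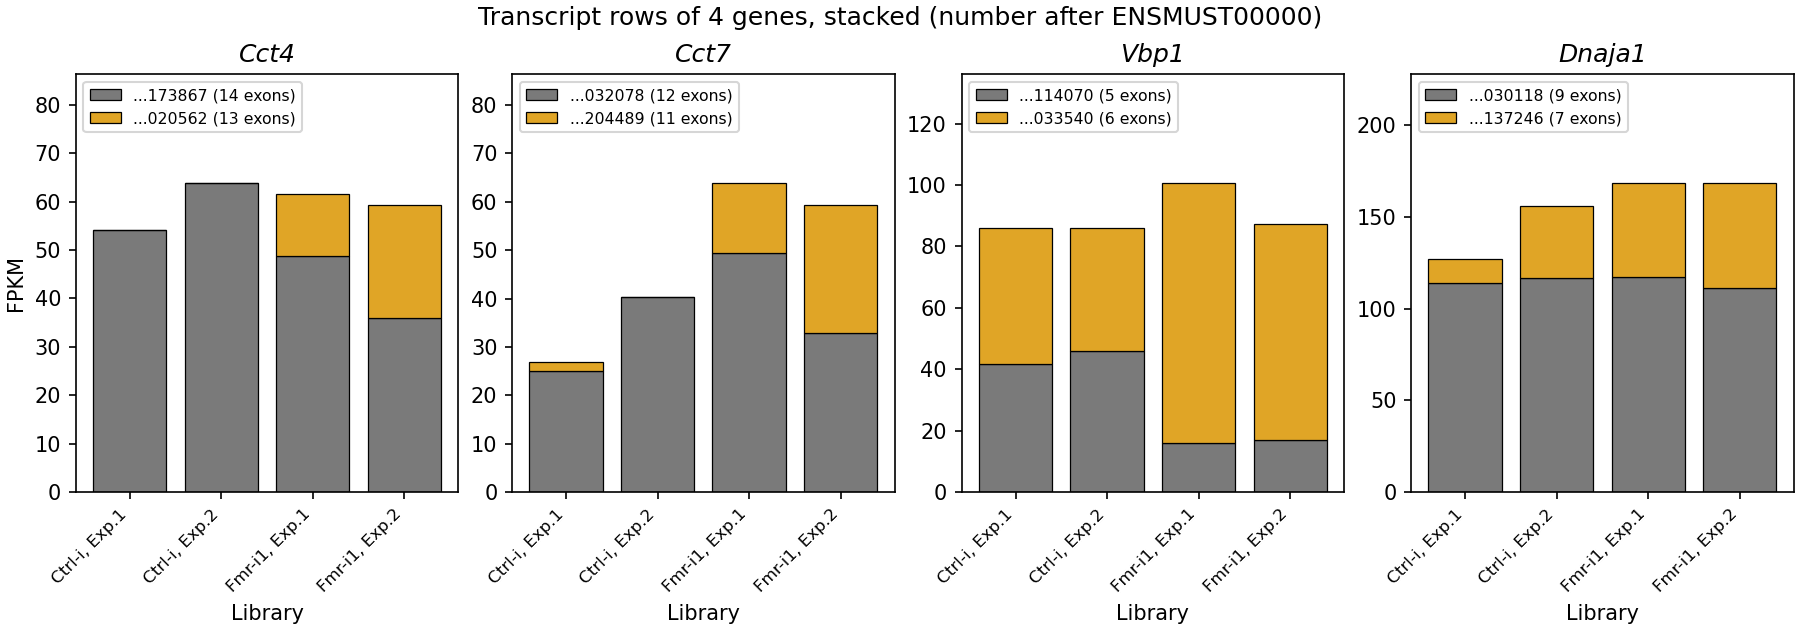
FPKM of the listed transcript rows of Cct4, Cct7, Vbp1 and Dnaja1 (vertical axes), stacked for each of the 4 libraries (horizontal axes); each bar's height is the gene's sum. The yellow row of Cct4 is not visible in Ctrl-i and reaches 23.28 FPKM in Fmr-i1, and the grey row of Vbp1 is 41.84 FPKM or more in Ctrl-i and 16.8 FPKM or less in Fmr-i1.

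All 6 prefoldin subunits had a positive log2 fold change, from 0.09 to 1.80 with a median of 0.20, of which those of Pfdn5, Pfdn6 and Vbp1 turned negative with median scaling. Of the 6, 3 were above the all-gene median. Their sums added up to 419.1 and 356.43 FPKM in Ctrl-i and to 419.96 and 494.56 FPKM in Fmr-i1. The groups barely separated in Exp.1, with a ratio of 1.002, and differed by 1.388 times in Exp.2. The ratio of the means was 1.179 (387.8 ± 44.3 and 457.3 ± 52.8 FPKM, SD, n = 2 each, two-sided exact permutation p = 0.333), and with median scaling it was 1.030. Without Pfdn4 the sums were 377.36 and 352.73 FPKM in Ctrl-i and 375.19 and 442.27 FPKM in Fmr-i1. These groups overlapped, with a ratio of 1.120.

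Pfdn4 showed the largest fold change of the 50 genes, and it rested on 1 library. It had 41.74 FPKM in the Exp.1 Ctrl-i library, 3.7 FPKM in that of Exp.2, and 44.77 and 52.29 FPKM in Fmr-i1. The log2 fold change of 1.80 ± 0.69 (adjusted p = 0.909) became 0.21 without the Exp.2 Ctrl-i library. The other 3 libraries were thus close together.

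Pfdn2 had the steadiest separation of this group on the deposited scale, with 60.2 and 64.47 FPKM in Ctrl-i and 72.17 and 75.0 FPKM in Fmr-i1 (0.24 ± 0.31, adjusted p = 0.953). With median scaling its log2 fold change was 0.04 and its groups overlapped. Pfdn1 had 39.35 and 38.46 FPKM against 39.84 and 57.62 FPKM, so its difference lay in the Exp.2 Fmr-i1 library alone (0.29 ± 0.34, adjusted p = 0.949). Pfdn5, the most abundant prefoldin RNA in every library and known also as a binder of Myc, had 165.47 and 146.72 FPKM against 140.36 and 196.65 FPKM. Its groups overlapped, as did those of Pfdn6, with 26.25 and 17.2 FPKM against 22.05 and 25.63 FPKM. Their log2 fold changes were 0.09 ± 0.31 and 0.15 ± 0.38, with adjusted p of 0.98 and 0.974.

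Vbp1, the prefoldin subunit that was named for its binding to the tumour suppressor Vhl, was level as a gene and not as rows. Its sum was 86.09 and 85.88 FPKM in Ctrl-i and 100.77 and 87.37 FPKM in Fmr-i1 (0.12 ± 0.30, adjusted p = 0.972). The row ENSMUST00000114070 had 41.84 and 45.99 FPKM in Ctrl-i and 15.83 and 16.8 FPKM in Fmr-i1. The row ENSMUST00000033540 had 44.25 and 39.89 FPKM in Ctrl-i and 84.94 and 70.57 FPKM in Fmr-i1. Neither row's groups overlapped, and the first row held 48.60% and 53.55% of the sum in Ctrl-i but 15.71% and 19.23% in Fmr-i1. The log2 fold changes were -1.37 ± 0.34 and 0.87 ± 0.31, with unadjusted p of 0.00936 and 0.0344 and adjusted p of 0.928 and 0.945.

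The 2 rows share exons 1 to 4 on chromosome X and part at the fifth. No reads over their junctions are given, so how well the 2 rows were told apart cannot be judged either. ENSMUST00000033540 goes on to an exon that begins at 75531085 and has 588 coding bases in all, and ENSMUST00000114070 takes a nearer last exon that begins at 75523836, reads 3 codons and a stop, and has 390 coding bases in all. The last 20 bases of exon 4 and the first 12 after it are shown, with those 12 bases in capitals (+ strand).
Vbp1 longer row: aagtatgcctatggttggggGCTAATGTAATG
Vbp1 shorter row: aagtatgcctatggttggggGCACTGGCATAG

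**Figure D4:**
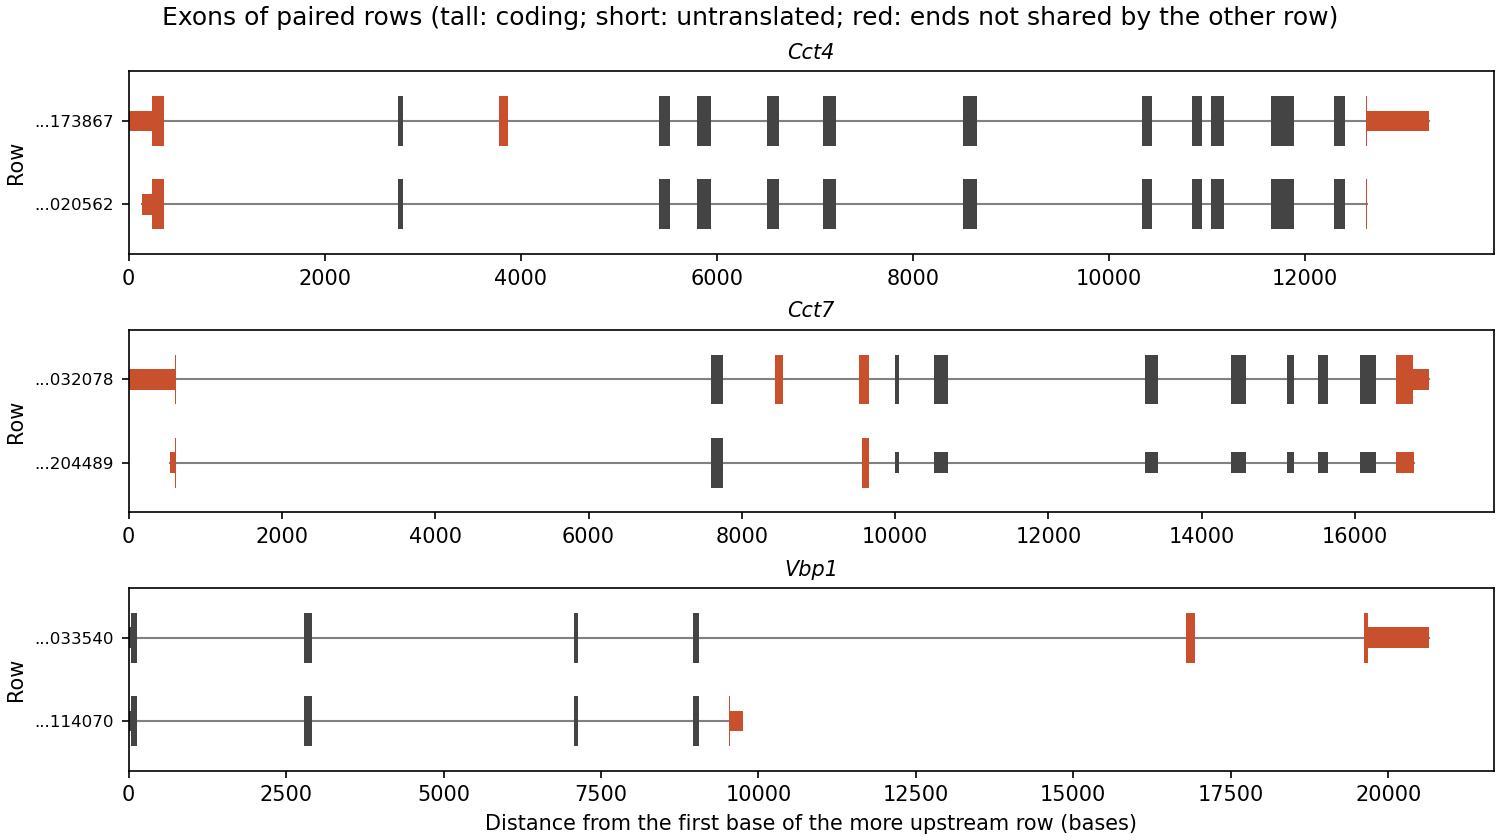
Exons of the paired rows of Cct4, Cct7 and Vbp1 (vertical axes, the last 6 digits of each transcript) against distance in bases from the first base of the more upstream row (horizontal axes). Tall blocks are coding, short blocks are untranslated and red blocks have at least 1 end that the other row does not share; the third block from the left in the upper Cct4 row is the 90-base exon that the lower row lacks.

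Among the tubulin cofactors 1 gene, Tbca, set the sum. Tbca, which holds beta-tubulin after its release from TRiC, took between 76.1% and 80% of the group's FPKM in the 4 libraries. It had 410.56 and 198.17 FPKM in Ctrl-i and 372.57 and 371.75 FPKM in Fmr-i1 (log2 fold change 0.38 ± 0.34, adjusted p = 0.946). The 2 Fmr-i1 libraries were almost equal, and the Ctrl-i libraries lay on either side of them. The group summed to 514.21 and 260.57 FPKM in Ctrl-i and 465.6 and 465.83 FPKM in Fmr-i1 (387.4 ± 179 and 465.7 ± 0.163 FPKM, SD, n = 2 each), and the ratio of 1.202 had an exact permutation p of 1.000 and became 0.906 without the Exp.2 Ctrl-i library.

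Pdcl3, a phosducin-like partner of TRiC, followed the order of Tbca, with 56.79 and 18.04 FPKM in Ctrl-i and 45.26 and 47.55 FPKM in Fmr-i1 (0.51 ± 0.44, adjusted p = 0.946). Most of that spread was in a retained-intron row, ENSMUST00000193073, at 36.94 and 2.85 FPKM against 25.85 and 23.9 FPKM. Its coding rows went opposite ways. The row of 6 exons had 14.07 and 13.68 FPKM against 11.12 and 12.6 FPKM (-0.21 ± 0.41, adjusted p = 0.968), lower in both Fmr-i1 libraries. The row of 5 exons, ENSMUST00000194552, had 5.78 and 1.51 FPKM against 8.29 and 11.05 FPKM (1.36 ± 0.62, adjusted p = 0.945), higher in both. Without the Exp.2 Ctrl-i library the fold changes of Tbca and Pdcl3 turned to -0.14 and -0.29.

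Tbcd, which with Tbce and Tbcc drives the assembly of the tubulin dimer, was the one cofactor whose groups did not overlap. It had 5.45 and 5.77 FPKM in Ctrl-i and 4.19 and 1.86 FPKM in Fmr-i1 (-0.78 ± 0.50, adjusted p = 0.915). A noncoding row, ENSMUST00000147560, was at 1.47 and 1.8 FPKM in Ctrl-i and 0 was listed for both Fmr-i1 libraries, which was too low to be tested. The coding row was at 3.98 and 3.97 FPKM against 4.19 and 1.86 FPKM, so without the noncoding row the groups overlapped. As for Fmr1, it cannot be told whether the zeros of the noncoding row were measured.

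Tbcb, the cofactor that receives alpha-tubulin, had 19.72 and 24.37 FPKM in Ctrl-i and 25.5 and 23.87 FPKM in Fmr-i1 (0.16 ± 0.36, adjusted p = 0.969; -0.03 with median scaling). Tbcc had 12.45 and 8.47 FPKM against 10.79 and 14.54 FPKM (0.26 ± 0.44, adjusted p = 0.96). Tbce had 9.24 and 5.75 FPKM against 7.29 and 6.26 FPKM (-0.10 ± 0.45, adjusted p = 0.989). All 3 had overlapping groups, and 4 of the 6 genes of this group were lowest in the Exp.2 Ctrl-i library, where 39% of all genes were lowest.

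Other genes of the chaperonin and tubulin folding pathway, 14 in a separate list of which 11 could be tested, had a median log2 fold change of 0.12, with 8 positive and 3 negative values and 0 calls. Arl2, the small GTPase that works with Tbcd, had 16.57 and 12.93 FPKM in Ctrl-i and 29.13 and 20.61 FPKM in Fmr-i1 (0.71 ± 0.37, adjusted p = 0.915). Txndc9, a phosducin-like partner of TRiC, had 29.99 and 27.27 FPKM against 52.41 and 35.7 FPKM (0.58 ± 0.34, adjusted p = 0.915). In both, the Fmr-i1 libraries lay above the Ctrl-i libraries, as in 27.2% of all genes. The 2 genes were picked by their small p in these libraries, which favours such a separation.

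The 21 heat shock genes split evenly, with 11 positive and 10 negative log2 fold changes and a median of 0.01, and 5 of the 21 were above the all-gene median of 0.16. Their FPKM summed to 2855.85 and 3062.1 in Ctrl-i, against 2845.29 and 2868.85 in Fmr-i1, a ratio of 0.966 (2959 ± 146 and 2857 ± 16.7 FPKM, SD, n = 2 each; exact permutation p = 0.667). With median scaling the ratio was 0.841 and the median log2 fold change -0.19. The most abundant in every library were Hspa8, the constitutive Hsp70, and Hsp90aa1, a cytosolic Hsp90, followed by Hsp90ab1 and Cryab in either order.

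Hspa8 had 534.4 and 556.92 FPKM in Ctrl-i and 418.52 and 654.5 FPKM in Fmr-i1, so the 2 Fmr-i1 libraries lay on either side of the Ctrl-i libraries. Hsp90aa1, the inducible cytosolic Hsp90, had 527.49 and 730.6 FPKM against 710.5 and 549.71 FPKM, with the order of the experiments reversed between the groups. Hsp90ab1, the constitutive form, had 343.83 and 395.79 FPKM against 311.48 and 318.23 FPKM. Of these abundant genes Hsp90ab1 alone had groups that did not overlap.

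The small heat shock protein gene Hspb1 had the smallest unadjusted p of the 50 genes. It had 17.29 and 5.46 FPKM in Ctrl-i and 30.13 and 40.61 FPKM in Fmr-i1. Both Fmr-i1 libraries were above both Ctrl-i libraries, also with median scaling and without the mitochondrially encoded RNAs. The log2 fold change was 1.73 ± 0.50 (unadjusted p = 0.00849, adjusted p = 0.844), and it lay between 0.98, without the Exp.2 Ctrl-i library, and 2.48, without that of Exp.1. Of the related genes, Hspb8 had 265.28 and 228.62 FPKM against 198.83 and 214.44 FPKM, lower in both Fmr-i1 libraries (-0.25 ± 0.29, adjusted p = 0.95), and Cryab, the abundant alpha-B crystallin of glia, had 391.23 and 319.24 FPKM against 351.78 and 287.99 FPKM. The small heat shock genes thus did not share a direction.

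The inducible Hsp70 genes Hspa1a and Hspa1b were low throughout. Hspa1a had 7.52 and 3.64 FPKM in Ctrl-i and 2.12 and 2.5 FPKM in Fmr-i1 (-0.93 ± 0.52, adjusted p = 0.915). Hspa1b had 4.38 and 5.28 FPKM against 4.48 and 2.35 FPKM (-0.44 ± 0.51, adjusted p = 0.949). Their coding sequences in GENCODE M21, of 1923 and 1926 bases, are identical at 98.1% of positions when compared base by base without gaps. Reads can thus be split between them and each value is uncertain. The pair together had 11.90 and 8.92 FPKM in Ctrl-i and 6.60 and 4.85 FPKM in Fmr-i1, and was lower in both Fmr-i1 libraries.

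The mitochondrial chaperonin is a pair of a large subunit, Hspd1, and its lid, Hspe1. Hspe1 had 205.78 and 163.63 FPKM in Ctrl-i and 152.79 and 130.73 FPKM in Fmr-i1 (-0.37 ± 0.29, adjusted p = 0.936). Hspd1 had 56.07 and 77.92 FPKM against 78.0 and 68.72 FPKM, and its groups overlapped. The ratio of Hspd1 to Hspe1 was 0.272 and 0.476 in Ctrl-i, against 0.511 and 0.526 in Fmr-i1, so it was above both Ctrl-i values in Fmr-i1 although only the lid separated the groups. The mitochondrial Hsp70 gene Hspa9 was steady at 69.12 and 69.21 FPKM against 77.92 and 74.94 FPKM.

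Hspd1 and Hspe1 share a promoter, which was one of the few among the members that held overlapping heat shock units. The RefSeq promoter table of GRCm38.p6, 250 bases before to 50 after each start site, had entries for 41 of the 50 genes. Both strands were searched for the units GAANNTTC and TTCNNGAA, which read as themselves on the opposite strand. A unit was held by 10 of the 15 heat shock genes with an entry and by 3 of 7 TRiC genes. It was held by 0 of 5 prefoldin, 0 of 5 cofactor and 0 of 9 ER genes. A gene counted if any of its promoters held a unit, and the promoter shared by Hspd1 and Hspe1 counted for both. The share of all 32851 promoters, counted singly and not by gene, was 15.1%. A run of 13 bases in which the 2 units overlap in a shared TTC or GAA was held by Hspd1, Hspe1, Dnajb6 and Hsph1 and by 0.603% of all promoters, and the shared promoter held 3 units in 18 bases. The runs of the shared promoter and of Dnajb6 are shown because they lie before the start sites; capitals mark the overlapping units, and the first lies at chr1:55088044-55088091 (- strand) and the second at chr5:29735837-29735879 (+ strand).
Hspd1: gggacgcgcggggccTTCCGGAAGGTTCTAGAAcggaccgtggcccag
Dnajb6: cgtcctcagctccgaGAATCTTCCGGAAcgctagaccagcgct
A match is a description of the letters only. The 4 genes did not share a pattern across the libraries, as the values of Hsph1 and Dnajb6 below show beside those of Hspd1 and Hspe1.

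Hsph1, the Hsp110 that recharges Hsp70, differed by 2.502 times between the Ctrl-i libraries, at 28.17 and 70.49 FPKM, and had 53.21 and 52.15 FPKM in Fmr-i1. Dnajb6 was steady at 84.07 and 97.96 FPKM against 93.57 and 100.38 FPKM. Dnaja1, a J protein that drives Hsp70, had 127.04 and 156.09 FPKM in Ctrl-i and 168.67 and 168.45 FPKM in Fmr-i1, above in both Fmr-i1 libraries (0.26 ± 0.30, adjusted p = 0.949). Its full-length row was level, at 113.75 and 116.78 FPKM against 117.16 and 111.11 FPKM, and the difference lay in a shorter row of 7 exons, ENSMUST00000137246, at 13.29 and 39.31 FPKM against 51.51 and 57.34 FPKM (fold change on the log2 scale 1.21 ± 0.44, adjusted p = 0.945; 0.46 without the Exp.1 Ctrl-i library).

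The remaining heat shock genes were Hspa4, Dnaja2, Dnajb1, Bag3, Stip1, Hsf1 and Hsf2. Hspa4, another Hsp110, had 43.22 and 40.79 FPKM in Ctrl-i and 45.1 and 55.34 FPKM in Fmr-i1 and was above in both. The other 6 had overlapping groups and log2 fold changes between -0.26, for Hsf2, and 0.17, for Dnajb1. The regulator Hsf1 was low and level, at 5.53 and 6.84 FPKM in Ctrl-i and 5.19 and 6.99 FPKM in Fmr-i1. A list of 19 known HSF1 targets, all tested and partly the same genes, had a median log2 fold change of 0.05, with 12 positive and 7 negative values and 0 calls.

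**Figure D5:**
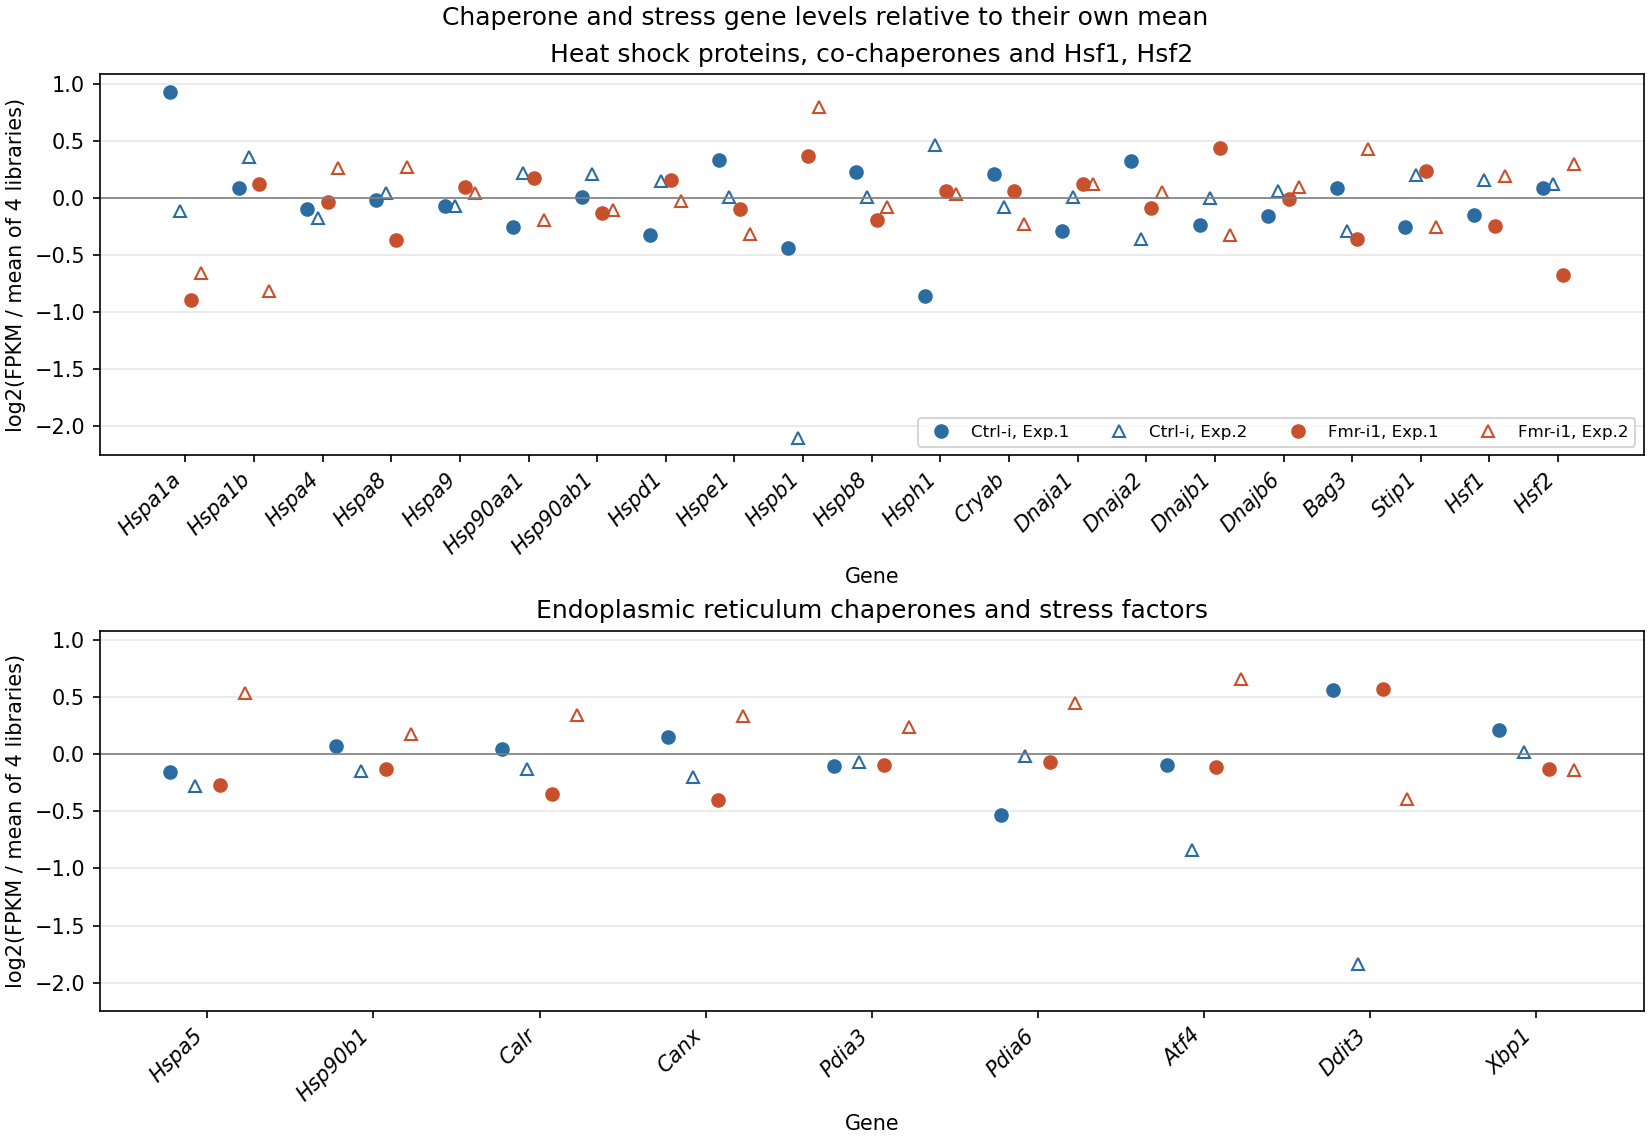
Summed FPKM of each heat shock gene (upper panel) and ER gene (lower panel) as log2 of its ratio to the gene's mean over the 4 libraries (vertical axes), by gene (horizontal axes). Blue is Ctrl-i, red is Fmr-i1, circles are Exp.1 and triangles are Exp.2. The red triangle is the highest symbol for 7 of the 9 ER genes and for 7 of the 21 heat shock genes.

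Some heat shock genes had the experiments in one order in Ctrl-i and in the reverse order in Fmr-i1. In 8 of the 21, Hspa1b, Hspa9, Hsp90aa1, Hspd1, Hsph1, Dnaja1, Dnajb1 and Stip1, Exp.2 was above Exp.1 in Ctrl-i and below it in Fmr-i1, as in 21.2% of all genes. The order was near a tie in Ctrl-i for Hspa9 (69.12 and 69.21 FPKM) and in Fmr-i1 for Dnaja1 (168.67 and 168.45 FPKM). The TRiC subunits Cct2, Cct4, Cct7 and Cct8 had this order too, and the other 4 subunits had the opposite one. The opposite order was also that of 6 of the 21 heat shock genes and of 33.8% of all genes. These orders were noticed after the values were seen and were not tested.

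The ER genes were higher in 1 Fmr-i1 library rather than in the group. They summed to 1134.51 and 1024.8 FPKM in Ctrl-i and to 995.03 and 1429.94 FPKM in Fmr-i1, and in 7 of the 9 the Exp.2 Fmr-i1 library was the highest, where it was for 35.8% of all genes. The ratio of 1.123 (1080 ± 77.6 and 1212 ± 308 FPKM, SD, n = 2 each) had an exact permutation p of 1.000, and was 0.877 in Exp.1 and 1.395 in Exp.2. Without the Exp.2 Fmr-i1 library it was 0.922, and with median scaling 0.978.

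Hspa5 (BiP), the ER Hsp70 that holds the stress sensors inactive, had 122.08 and 112.3 FPKM in Ctrl-i and 113.16 and 198.01 FPKM in Fmr-i1 (log2 fold change 0.35 ± 0.33, adjusted p = 0.946). Without the Exp.2 Fmr-i1 library its fold change was -0.05. The lectin chaperone Calr had 232.69 and 206.89 FPKM against 177.69 and 285.85 FPKM, and its membrane-bound relative Canx had 201.98 and 158.16 FPKM against 137.88 and 229.8 FPKM. Both sums were thus lowest and highest in the 2 Fmr-i1 libraries, so the spread within that group exceeded the difference between the groups. For Canx the low value came with a noncoding row, ENSMUST00000146979, at 65.89 and 46.01 FPKM against 18.59 and 75.46 FPKM. Its coding row had 136.09 and 112.15 FPKM against 119.29 and 154.34 FPKM and was lowest in the Exp.2 Ctrl-i library. Hsp90b1, the Hsp90 of the ER, had the same order in milder form within Fmr-i1, at 252.24 and 216.08 FPKM against 219.03 and 271.0 FPKM.

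Of the ER disulfide isomerases, Pdia6 had like ratios in both experiments. It had 64.09 and 91.62 FPKM in Ctrl-i and 88.54 and 126.24 FPKM in Fmr-i1, 1.381 times higher in Exp.1 and 1.378 times in Exp.2, although the groups overlapped (0.46 ± 0.30, adjusted p = 0.915). Pdia3 had 202.5 and 206.84 FPKM against 203.65 and 255.95 FPKM (0.16 ± 0.29, adjusted p = 0.965). The difference of Pdia3 lay in the Exp.2 Fmr-i1 library, and its fold change was -0.04 with median scaling.

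The 3 stress transcription factors differed from one another. Atf4, a factor of the integrated stress response that is translated when most synthesis slows, had 23.93 and 14.3 FPKM in Ctrl-i and 23.68 and 40.36 FPKM in Fmr-i1 (0.71 ± 0.43, adjusted p = 0.915). Ddit3 (CHOP), its target that promotes cell death, had 17.54 and 3.32 FPKM against 17.64 and 9.04 FPKM, so Exp.1 was level and the low value was that of the Exp.2 Ctrl-i library (0.61 ± 0.47, adjusted p = 0.935; -0.44 without that library). Xbp1, whose spliced form switches on ER chaperones, had 17.46 and 15.29 FPKM against 13.76 and 13.69 FPKM and was below in both Fmr-i1 libraries (-0.24 ± 0.38, adjusted p = 0.958). Of the 3, Xbp1 alone had groups that did not overlap, and its spliced form cannot be read from these FPKM.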

How the data were processed

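RNA of purified multicilia was measured in 4 libraries, 2 Ctrl-i and 2 Fmr-i1, grouped by their labels. The authors deposited FPKM per transcript row, with reads trimmed and mapped to GRCm38/mm10. For this step the paper lists Cutadapt, Hist and Cuffdiff, while HISAT2 2.1.0 and featureCounts 1.5.3 come from the submitters' processing notes, and the sources used here do not settle which made the deposited FPKM. No counting error is given, because the depth in reads is unknown. Of 12515 rows 12483 matched GENCODE M21, and it gave back 25 symbols stored as calendar dates.

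Rows of a symbol were summed. All rows, and separately all sums, that averaged 1 FPKM or more were tested for a difference between Fmr-i1 and Ctrl-i on log2(FPKM + 1) in limma 3.58.1 (R 4.3.3). The model held the experiment as block and a mean-variance trend, and p-values were adjusted by Benjamini-Hochberg (threshold 0.05). Fold changes are on that scale and understate changes of low genes. Experiments were paired because the study compares libraries within each; paired libraries deviated from their group means with a correlation of -0.0822. Group sums were compared with two-sided exact permutation tests. On simulated data the fit recovered the size of fold changes on average. It called 0.3% of rows and 4.7% of sums with a simulated log2 fold change of 1, and 5.1% and 48% at 2. A gene without a call is therefore not shown to be unchanged. Unchanged genes made up more of the calls than the threshold allows, for sums more than for rows. For sums the fit estimated a higher prior degree of freedom than was simulated. Alternatives were 2 pseudocounts, 2 filters, 3 scalings, no block, no variance trend and each library left out.

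The genes and lists were chosen with earlier results of these data known, and supplementary FPKM of some members had been seen before the tests were written. By the rule for named genes, fold changes with error and adjusted p are given for every TRiC, prefoldin and cofactor gene and for up to 6 heat shock and 6 ER genes with the smallest p; values of other genes and rows were chosen after they were seen.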

Additional observations from a re-analysis of the deposited data

How the results depend on the processing

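The replicate block mattered for the count of rows: with it 0 rows were called, and with no replicate block 3. Gene sums stayed at 0 calls with no replicate block, and leaving out 1 library at a time gave 0 to 1 called sums and 0 called rows. Averaged within each experiment (replicate block), the group ratios kept their direction.

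Median scaling turned the fold changes of Cct4 (-0.16), Cct5 (-0.05), Cct6a (-0.07), Pfdn5 (-0.10), Pfdn6 (-0.03), Vbp1 (-0.07), Tbcb (-0.03) and Pdia3 (-0.04), and the group ratios of TRiC (0.964) and the ER genes (0.978). It moved the median log2 fold change of TRiC to -0.06 and of the heat shock genes to -0.19, and the members above and below to 2 and 9 (17.1% and 18.3% of all genes). Quantile normalization turned Cct4 (-0.08), Pfdn6 (-0.02) and Tbcb (-0.0017), moved the TRiC median to 0.03 and the heat shock median to -0.10, and left 4 members above and 8 below (18.5% and 16.4% of all genes). Rescaling without mitochondrially encoded RNAs turned Cct4 (-0.02). The causes were not tested.

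Leaving out 1 library at a time gave fold changes from -0.14 to 0.10 for Cct2, -0.08 to 0.15 for Cct4, -0.18 to 0.09 for Cct8, -0.15 to 0.33 for Pfdn5, -0.14 to 0.44 for Pfdn6, -0.14 to 0.91 for Tbca, -0.40 to 0.20 for Tbce, -0.29 to 1.32 for Pdcl3, -0.44 to 1.66 for Ddit3, -0.05 to 0.75 for Hspa5 and -0.0071 to 0.32 for Pdia3. It gave group ratios of 0.906 to 1.787 for the cofactors, 0.933 to 1.000 for heat shock and 0.922 to 1.324 for ER genes, a heat shock median of -0.09 to 0.11, and 17 to 27 members above and 10 to 13 below, beside 40.3% to 50.3% and 20.6% to 25.8% of all genes, since 3 libraries separate more easily than 4. Counts over scalings and left-out libraries were added after seeing the data.

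With 2 libraries a group and unknown depth, the 95% intervals of all members but Cct7, Pfdn4 and Hspb1 included 0.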

Other observations

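Chaperones outside the 50 genes differed in both directions, with no call in either list. Of 39 other chaperone genes, in a list apart from the ER stress genes, 34 could be tested, with a median log2 fold change of 0.10, 22 positive and 12 negative. Hspa13, an Hsp70 relative of microsomes, had 6.3 and 8.14 FPKM in Ctrl-i and 13.97 and 14.79 FPKM in Fmr-i1 (log2 fold change 0.91 ± 0.42, SE; limma adjusted p = 0.915), and Bag2, an inhibitor of the Chip ubiquitin ligase, had 13.79 and 12.76 FPKM against 30.38 and 17.19 FPKM. Hspa2, an Hsp70 best known from the testis, went the other way, with 147.89 and 175.68 FPKM against 131.75 and 69.98 FPKM (-0.74 ± 0.36, adjusted p = 0.915). The groups of all 3 genes did not overlap, as for 27.2% of all genes above and 9.99% below. The 3 were picked by their small p in these libraries, which favours such a separation.

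Of 26 other ER stress genes 20 could be tested, with a median log2 fold change of -0.01, 9 positive and 11 negative. Dnajb9, a J protein partner of BiP, had 36.7 and 30.85 FPKM in Ctrl-i and 52.73 and 55.4 FPKM in Fmr-i1 (0.67 ± 0.33, adjusted p = 0.915). Creld2 had 24.53 and 20.97 FPKM against 26.09 and 45.5 FPKM, and Manf, a secreted ER stress protein, had 134.39 and 101.22 FPKM against 142.01 and 183.6 FPKM. Creld2 and Manf were highest in the Fmr-i1 library of Exp.2, as were 9 of these 20 genes, beside 7 of the 9 ER members and 35.8% of all genes. The genes named here are the 3 of each list with the smallest p.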
